A study of Mus musculus with 12 samples.

Results

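The 44 collagen genes examined were all genes named Col, a number, a, and a number in deposited counts of 38127 genes per library. They encode the alpha chains of collagens and were sorted by class into 11 genes of fibrillar collagens, 8 of basement membrane collagens, and 25 others. RNA was sequenced from cells sorted from fetal liver (FL) of C57BL/6 mouse embryos, with 3 libraries for each of 4 groups. P2 cells were sorted from E14.5 FL as Ter119-CD45-CD54-CD31-Kit+CD24+ cells. CD31+ cells were sorted from E14.5 FL as Ter119-CD45-CD54+CD31+ cells. The E14.5 CD54+CD31- cells were Ter119-CD45-CD54+CD31- cells, and the study calls them CD324+ cells. The same Ter119-CD45-CD54+CD31- gate gave the E18.5 CD54+CD31- cells. All groups share the strain, and the labels name no treatment. The E14.5 libraries of a group came from independent litters, per the paper. Nothing in the labels says from how many litters the E18.5 libraries came.

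Collagens are secreted proteins in which 3 alpha chains wind into a triple helix. Fibrillar collagens assemble into the fibrils of connective tissue, and type IV collagen forms the sheet-like network of basement membranes, on which endothelial and epithelial cells rest. Beaded filament, fibril-associated (FACIT), hexagonal network, anchoring fibril, and transmembrane collagens make up most of the other class. In the liver, stellate cells are known for fibrillar collagen, and sinusoidal endothelium is known for its sparse basement membrane.

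Levels are CPM, each gene's count scaled to library size, after TMM normalization over the 12 libraries, in the order of replicates 1, 2, and 3, and means are given ± SD over 3 libraries. Fold changes are log2 values ± SE from edgeR's quasi-likelihood test, with p-values adjusted by the Benjamini-Hochberg method over all genes tested. A gene was called higher or lower at an adjusted p below 0.05. Total counts were between 40714017 and 64368883 per library. The counts of nested genes bear on how members were measured. Of 1027 protein-coding genes lying wholly inside other genes, 98.1% had 0 counts in all 12 libraries, against 15.7% of 13886 genes with no overlap. The share was 98.9% of 363 genes nested in a gene on the opposite strand without shared exons. Counts therefore behaved as if assigned over whole gene spans, introns included, without strand. *Col10a1* lies wholly inside *Nt5dc1*, and its 0 counts in every library carry no information on its expression. The shared part of the span was 13.7% for *Col4a2*, 7.72% for *Col18a1*, 5.96% for *Col4a1*, and 5.60% for *Col5a2*. Because neither exon length nor span length fits such counts, levels were compared between groups for the same gene and not between genes.

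Markers of cell types were read in the same libraries. The 9 hepatoblast markers summed to 73468 to 84338 CPM in E14.5 CD54+CD31- cells, the 10 endothelial markers to 9971 to 10657 CPM in CD31+ cells, and the 10 erythroid markers to 3443 to 3779.5 CPM in P2 cells. The erythroid sum was 747, 1212, and 902 CPM in E14.5 CD54+CD31- cells and 499 to 663 in CD31+ cells. The hepatoblast sum was 872 to 981 CPM in CD31+ cells and 711 to 721 in P2 cells. In P2 cells the endothelial sum was 86.7, 449, and 135 CPM, so replicate 2 stood apart. The 9 macrophage markers summed to 167 to 284 CPM in E14.5 CD54+CD31- cells, 62.7 to 120.1 in CD31+ cells, and 7.90 to 13.2 in P2 cells. The 7 megakaryocyte markers summed to 327 to 581 CPM in CD31+ cells and 44.5 to 56.7 in E14.5 CD54+CD31- cells. The E18.5 libraries went against their liver label in part. Their 12 lung epithelium markers summed to 24606, 11456, and 11504 CPM, against 38.1 to 52.3 in E14.5 CD54+CD31- cells, and *Nkx2-1*, a defining marker of lung epithelium, was at 0 in all 3 E14.5 libraries. Their hepatoblast sum was 5782, 39951, and 51821 CPM, so replicate 1 stood apart from the other two. The E18.5 libraries are called by their label, and the part of lung cells in the E18.5 results was not tested.

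The genes of type IV collagen lie in head-to-head pairs that are transcribed away from each other, and 3 such pairs hold its 6 chains. The stretches at the paired starts are shown because the following results compare the 2 genes of each pair. Coordinates are on GRCm38, starts are those of GENCODE vM21, and bases are from RefSeq's promoter table for the same build, which held 35 of the 44 members. The starts of *Col4a1* and *Col4a2* on chromosome 8 overlapped by 22 bases. *Col4a4* and *Col4a3* on chromosome 1 started 71 bases apart, and *Col4a6* and *Col4a5* on the X chromosome 1308 bases apart. Capitals mark GGGCGG, the core of a GC box, on either strand; CCAAT and TATAAA were searched in the same way and were not found in these stretches. Lines give the plus strand except for *Col4a6*, whose line is the minus strand.
Col4a1 and Col4a2, shared first bases, chr8:11312805-11312826: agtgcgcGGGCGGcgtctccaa
Col4a4 to Col4a3, all bases between the starts, chr1:82586850-82586920: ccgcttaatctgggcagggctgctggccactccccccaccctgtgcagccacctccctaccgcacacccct
Col4a6, the 150 bases before its start, chrX:141474077-141474226: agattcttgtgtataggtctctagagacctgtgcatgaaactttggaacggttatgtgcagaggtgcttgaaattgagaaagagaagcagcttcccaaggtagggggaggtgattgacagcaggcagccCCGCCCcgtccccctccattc
Col4a5, the 150 bases before its start, chrX:141475235-141475384: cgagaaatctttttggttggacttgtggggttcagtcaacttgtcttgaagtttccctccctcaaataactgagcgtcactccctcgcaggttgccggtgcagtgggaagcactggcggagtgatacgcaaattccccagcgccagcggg
Over the 250 bases before the start, GGGCGG was in 21 of the 35 collagen promoters and in 32.9% of 27025 promoters. CCAAT was in 12 of 35 and in 34.5%, and TATAAA in 5 of 35 and in 13.0%. None of the 3 motifs contains another.

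**Figure D1:**
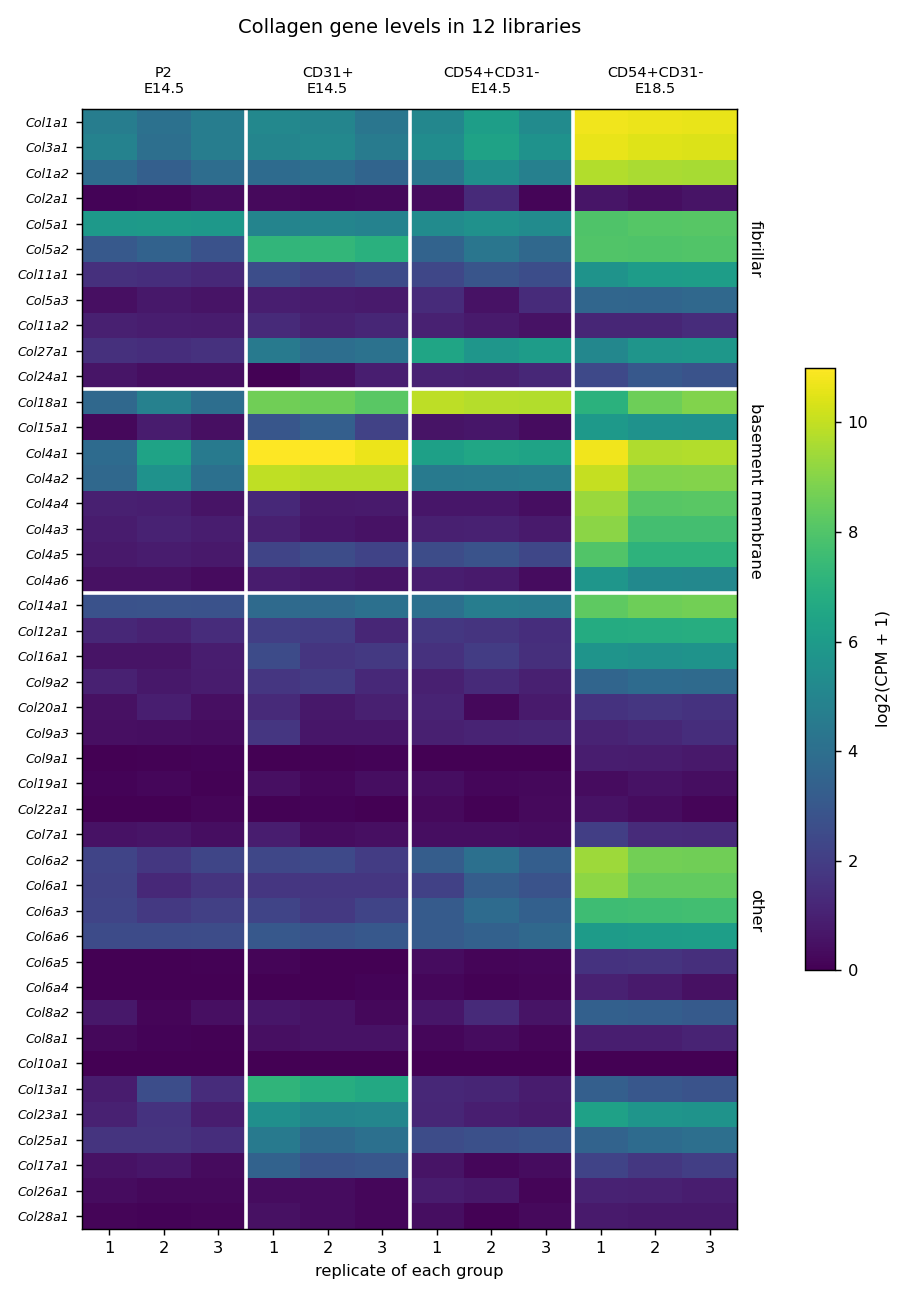
Levels of the 44 collagen genes (rows, by class and subclass) in the 12 libraries (columns, 3 replicates per group), as log2(CPM + 1) on a color scale. *Col4a1* and *Col4a2* stood out in CD31+ cells, *Col18a1* in E14.5 CD54+CD31- cells, and most rows were brightest at E18.5.

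Summed over all 44 members, collagen counts were lowest in P2 cells. The sum was 213, 311, and 217 CPM in P2 cells, 1360.2, 1406, and 1288 in E14.5 CD54+CD31- cells, 4249.6, 3779, and 3272 in CD31+ cells, and 11343, 8526, and 8585 in E18.5 CD54+CD31- cells. No 2 groups overlapped. In bulk libraries, fewer cells of a type and less RNA per cell cannot be told apart. Basement membrane members held 87.0% ± 0.122 (SD, n = 3) of the collagen counts in CD31+ cells and 74.8% ± 3.76 in E14.5 CD54+CD31- cells. The 6 type IV genes made up 2922 of the class mean of 3277 CPM in CD31+ cells. In E14.5 CD54+CD31- cells they made up 112 of 1010 CPM, and *Col18a1* alone 897. Fibrillar members held 55.1% ± 15.0 in P2 cells and 48.5% ± 5.82 at E18.5. In P2 cells *Col5a1* alone made up 60.5 of the class mean of 131 CPM. All these are parts of counts, which depend on gene length as well as on transcript number. In P2 cells the basement membrane share was 19.1% and 25.2% in replicates 1 and 3 and 51.8% in replicate 2, the library with the highest endothelial sum.

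The main question of the design was how P2 cells differ from the endothelial and the hepatoblast-rich cells of the same organ. Of the 44 members, 39 passed the low count filter of the E14.5 fit. Against E14.5 CD54+CD31- cells, 17 of the 39 were lower in P2 cells and 1 was higher, where 36.1% of all 15461 genes tested were lower, 33.8% higher, and 70.0% called in either direction. Their median log2 fold change was -1.16, against -0.01 over all genes. Against CD31+ cells, 20 were lower and 1 was higher in P2 cells, against backgrounds of 39.4% and 34.3% (73.7% in either direction), with a median of -0.88 against -0.13. Between CD31+ and E14.5 CD54+CD31- cells, 9 members were higher and 11 lower in CD31+ cells, against backgrounds of 31.7% and 34.0% (65.6% in either direction), with a median of 0.01 against -0.03. As shares of the 39, the lower calls in P2 cells were 43.6% and 51.3%, and the higher calls 2.56% in each. Higher calls were thus far below the background, and lower calls somewhat above it. In these comparisons 21 and 18 of the 39 were not called, so members were called in either direction less often than all genes. In CD31+ cells the shares were 23.1% higher and 28.2% lower, both under the background. By class, 7 of 11 fibrillar, 2 of 8 basement membrane, and 8 of 20 other members were lower in P2 than in E14.5 CD54+CD31- cells. These were 63.6%, 25.0%, and 40.0% of the class, against 36.1% of all genes. Against CD31+ cells the counts were 3, 5, and 12, or 27.3%, 62.5%, and 60.0%, against 39.4%. The E14.5 comparisons share libraries and are not independent of one another. With the authors' normalization factors in place of TMM, the median of all genes moved by -0.26, -0.37, and 0.11 in these 3 comparisons. The share of higher calls among all genes called then went from 48.4% to 38.2% for P2 against CD54+CD31- cells and from 46.6% to 33.9% for P2 against CD31+ cells. Among the members, the lower calls in P2 cells went from 17 to 20 and from 20 to 25, and the higher calls were 1 in each.

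**Figure D2:**
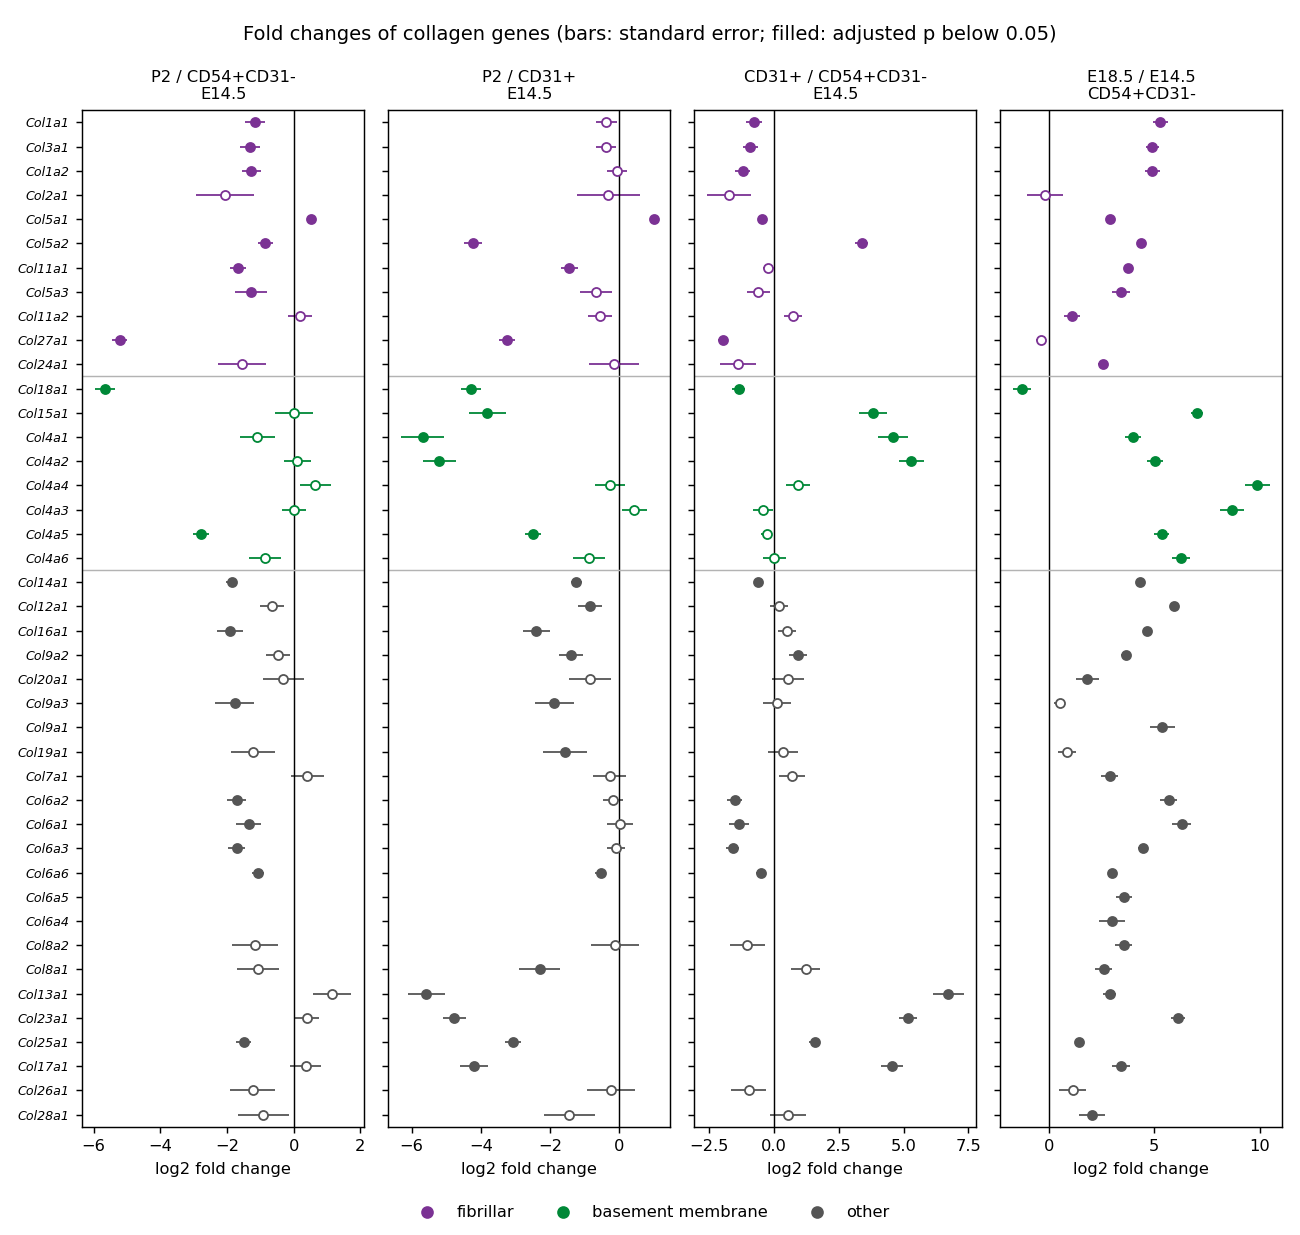
Log2 fold changes of the collagen genes in 4 comparisons, 1 panel each, with standard errors as bars and filled points for an adjusted p below 0.05. Colors give the class, and zero is the black line. Filled points lie mostly left of zero in both P2 panels and right of zero in the E18.5 panel, while the CD31+ panel holds both.

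*Col4a1* and *Col4a2* encode the chains found in nearly all basement membranes, and both were far higher in CD31+ cells than in the other E14.5 groups. *Col4a1* was at 2316, 2002, and 1660.2 CPM in CD31+ cells, 75.2, 89.0, and 81.7 in E14.5 CD54+CD31- cells, and 13.5, 81.9, and 21.5 in P2 cells. All CD31+ libraries were above all others of E14.5. *Col4a2* was at 973, 903, and 892 CPM in CD31+ cells, 22.4, 22.8, and 24.6 in E14.5 CD54+CD31- cells, and 12, 48.1, and 15.8 in P2 cells. Against E14.5 CD54+CD31- cells, the log2 fold change in CD31+ cells was 4.60 ± 0.59, adjusted p = 6.08e-05 for *Col4a1*. It was 5.30 ± 0.48, adjusted p = 4.26e-06 for *Col4a2*. Endothelial markers moved the same way, with 10 of 10 higher in CD31+ cells, against 31.7% of all genes.

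Within P2 cells, replicate 2 had the highest *Col4a1* and *Col4a2* levels. *Col4a1* was at 81.9 CPM there and at 13.5 and 21.5 in the other two libraries. The endothelial markers *Pecam1* (4.57, 29.0, and 8.24 CPM), *Cdh5* (9.42, 66.0, and 16.8), and *Kdr* (12.2, 75.9, and 20.9) were highest in the same library, and their part in the result was not tested. *Col4a1* was not called between P2 and E14.5 CD54+CD31- cells with all libraries (-1.09 ± 0.52, adjusted p = 0.0852). Without P2 replicate 2 it was lower in P2 cells (-2.23 ± 0.21, adjusted p = 2.01e-06). *Col4a2* went from 0.10 ± 0.41, adjusted p = 0.834 to -0.75 ± 0.13, adjusted p = 0.000354 in the same way. Against CD31+ cells both were lower in P2 cells with all libraries, at -5.69 and -5.20 on the log2 scale, and remained lower without replicate 2, at -6.83 and -6.05. *Col13a1*, *Col15a1*, *Col18a1*, and *Col23a1* also had their highest P2 value in replicate 2.

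The other 4 type IV chains, which join in the networks of specialized basement membranes such as those of lung alveoli and kidney glomeruli, were scarce at E14.5. *Col4a3*, *Col4a4*, and *Col4a6* were at most 1.44 CPM in each of the 9 E14.5 libraries, and none of the 3 was called in any E14.5 comparison. *Col4a3* was at 0.781, 1.06, and 0.847 CPM in P2 libraries and at 0.934, 0.588, and 0.460 CPM in CD31+ libraries. *Col4a4* was at 0.942, 0.916, and 0.501 CPM in P2 libraries and at 1.44, 0.659, and 0.729 CPM in CD31+ libraries. *Col4a6* was at 0.849, 0.724, and 0.296 CPM in E14.5 CD54+CD31- cells, 0.790, 0.624, and 0.475 in CD31+ cells, and 0.390, 0.395, and 0.25 in P2 cells. All of these values were low. *Col4a5* was at 4.92, 5.98, and 4.02 CPM in E14.5 CD54+CD31- cells, 3.79, 4.85, and 3.66 in CD31+ cells, and 0.689, 0.812, and 0.693 in P2 cells. It was lower in P2 cells than in E14.5 CD54+CD31- cells (-2.78 ± 0.24, adjusted p = 2.11e-06) and than in CD31+ cells (-2.49 ± 0.23, adjusted p = 4.38e-06). The other two groups overlapped (-0.29 ± 0.21, adjusted p = 0.258).

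**Figure D3:**
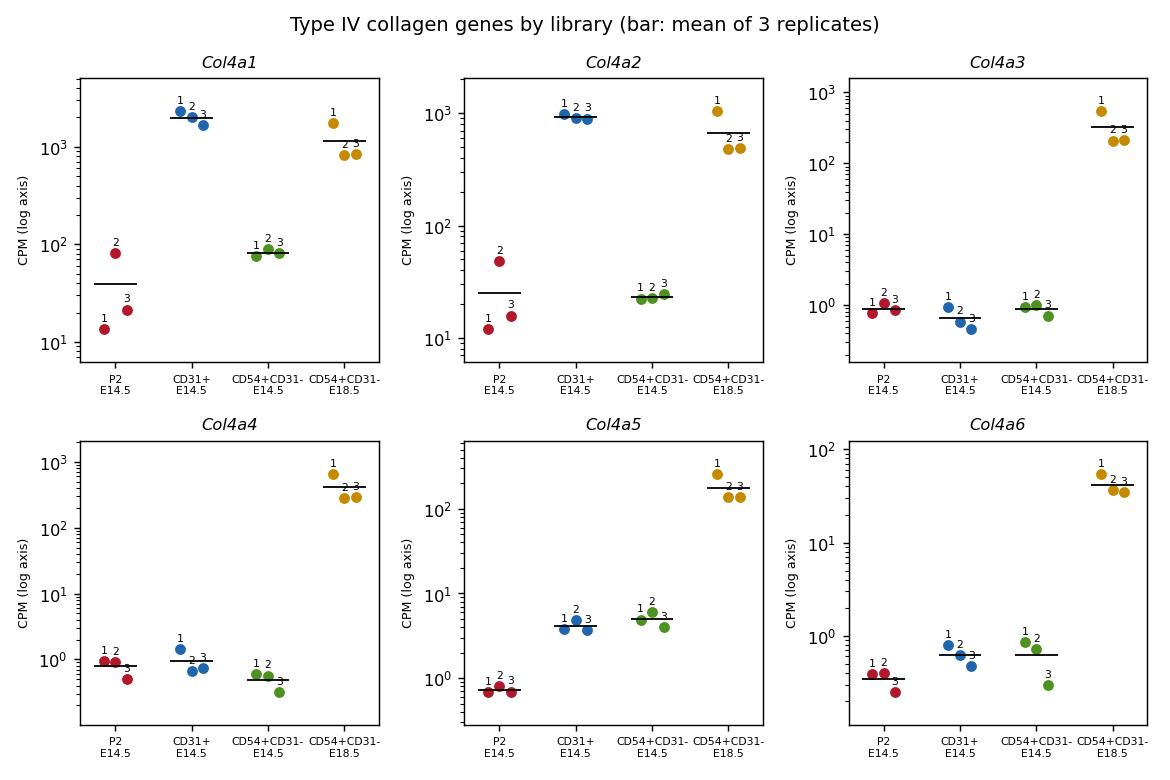
CPM of the 6 type IV collagen genes in each library on log axes, with replicates numbered and group means as bars. *Col4a1* and *Col4a2* were high in CD31+ and E18.5 cells, with P2 replicate 2 above the other P2 libraries, and the other 4 genes were highest at E18.5.

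The ratio of *Col4a1* to *Col4a2* counts differed between groups although their starts overlap. It was 3.36, 3.90, and 3.32 in E14.5 CD54+CD31- cells, 2.38, 2.22, and 1.86 in CD31+ cells, 1.13, 1.70, and 1.36 in P2 cells, and 1.69, 1.71, and 1.72 at E18.5. The ratios of the E14.5 CD54+CD31- libraries were above all others. A ratio of counts keeps the length of each gene in it, so its level has no meaning of its own, and only its change between groups is given.

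The multiplexins *Col15a1* and *Col18a1*, basement membrane collagens whose ends carry endostatin-like domains, went opposite ways between CD31+ and E14.5 CD54+CD31- cells, and P2 cells were lower than CD31+ cells in both. *Col18a1* was at 957, 873, and 861 CPM in E14.5 CD54+CD31- cells, 389, 371, and 286 in CD31+ cells, and 12.2, 27.1, and 14.5 in P2 cells. The 3 groups did not overlap. It was lower in P2 than in E14.5 CD54+CD31- cells (-5.66 ± 0.30, adjusted p = 6.64e-08), the largest fall of a member in that comparison, and lower in CD31+ than in E14.5 CD54+CD31- cells (-1.37 ± 0.25, adjusted p = 0.000768). *Col15a1* was at 6.79, 8.91, and 3.49 CPM in CD31+ cells, 0.481, 0.598, and 0.271 in E14.5 CD54+CD31- cells, and 0.184, 0.791, and 0.385 in P2 cells. It was higher in CD31+ than in E14.5 CD54+CD31- cells (3.83 ± 0.54, adjusted p = 0.000115), and P2 and E14.5 CD54+CD31- cells overlapped (0.02 ± 0.57, adjusted p = 0.979). Against CD31+ cells, the log2 fold change in P2 cells was -3.81 ± 0.53, adjusted p = 7.51e-05 for *Col15a1*. It was -4.29 ± 0.29, adjusted p = 4.07e-07 for *Col18a1*. Of the hepatoblast markers, 9 of 9 were also lower in P2 and in CD31+ cells than in E14.5 CD54+CD31- cells. Over all genes the shares were 36.1% and 34.0%. Between P2 and CD31+ cells the markers differed less than *Col18a1*, with a median log2 fold change of -0.41, and their part was not tested.

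All 4 transmembrane collagens, which sit in the plasma membrane and can be shed from it, were higher in CD31+ cells than in both other E14.5 groups. *Col13a1* was at 146, 114, and 98.2 CPM in CD31+ cells, 1.36, 1.23, and 0.790 in E14.5 CD54+CD31- cells, and 0.804, 5.10, and 1.62 in P2 cells. Its log2 fold change against E14.5 CD54+CD31- cells, 6.73 ± 0.59, adjusted p = 3.19e-06, was the largest rise of a member in that comparison. *Col23a1* was at 44.0, 30.0, and 31.9 CPM in CD31+ cells and 1.30, 0.881, and 0.740 in E14.5 CD54+CD31- cells (5.17 ± 0.34, adjusted p = 3.96e-07). *Col17a1*, known from hemidesmosomes of skin, was at 10.1, 6.18, and 6.86 CPM in CD31+ cells and 0.509, 0.157, and 0.296 in E14.5 CD54+CD31- cells (4.56 ± 0.43, adjusted p = 5.78e-06). In P2 cells *Col23a1* was at 1.03, 2.02, and 0.866 CPM and *Col17a1* at 0.436, 0.583, and 0.25 CPM, near their E14.5 CD54+CD31- levels. *Col25a1* was at 21.7, 12.6, and 15.6 CPM in CD31+ cells. It was the only 1 of the 4 that also differed between P2 (2.16, 2.14, and 1.69 CPM) and E14.5 CD54+CD31- cells (4.95, 5.41, and 6.29 CPM), being lower in P2 cells (-1.49 ± 0.22, adjusted p = 0.000141). For *Col13a1* the P2 value of replicate 2 was 5.10 CPM, above every E14.5 CD54+CD31- library, and without P2 replicate 1 the gene was called higher in P2 cells (log2 fold change 1.55, adjusted p = 0.0111), against 1.15 ± 0.58, adjusted p = 0.0991 with all libraries. Without P2 replicate 2 it was at 0.13 ± 0.34, adjusted p = 0.744.

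**Figure D4:**
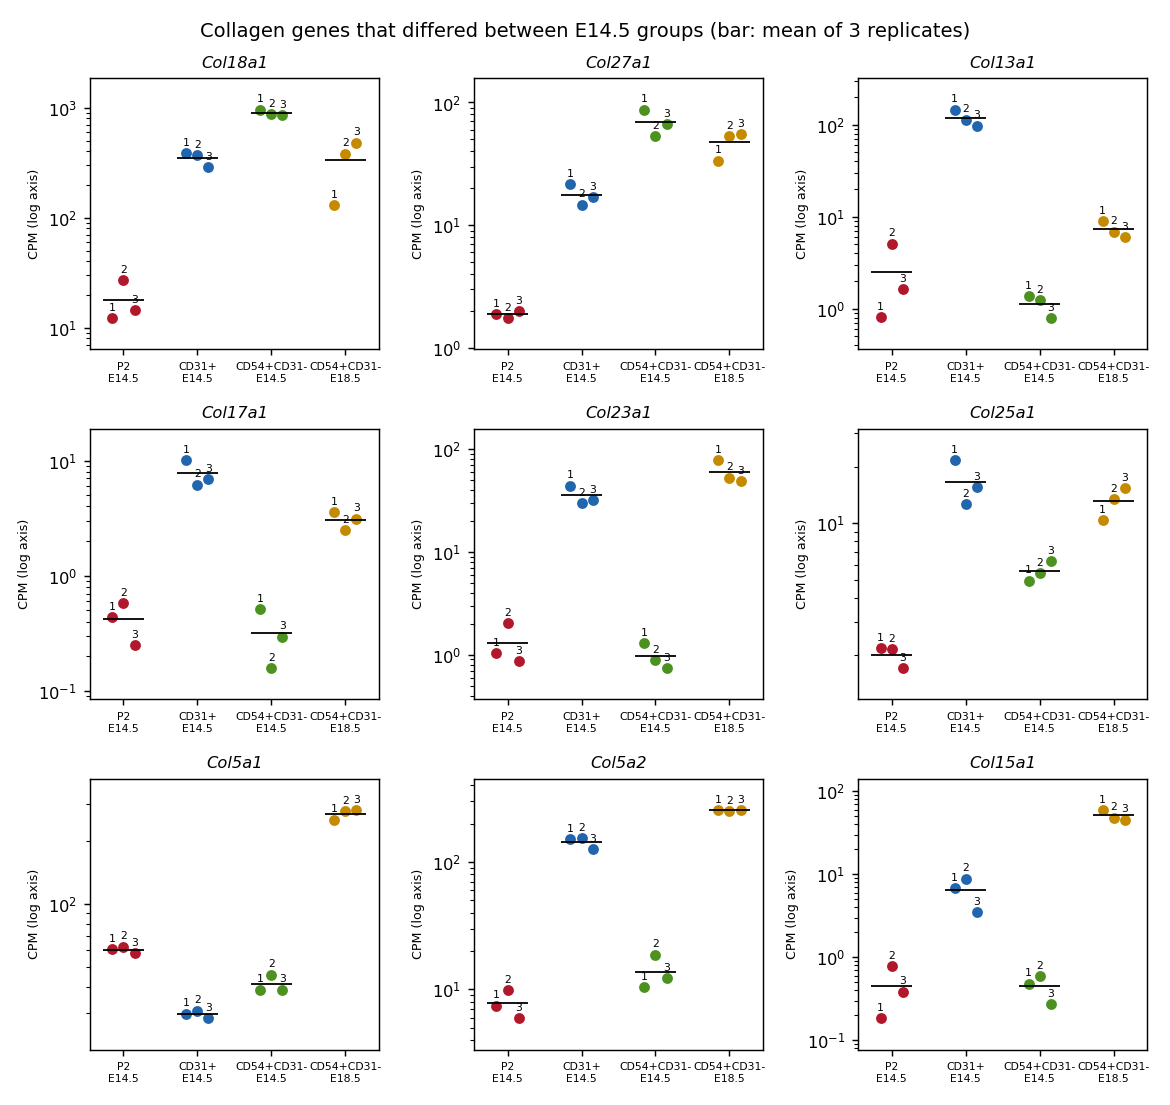
CPM of 9 collagen genes in each library on log axes, with replicates numbered and group means as bars. *Col18a1* and *Col27a1* had their highest means in E14.5 CD54+CD31- cells, the 4 transmembrane genes, *Col15a1*, and *Col5a2* were higher in CD31+ cells than in the other E14.5 groups, and *Col5a1* was highest of the E14.5 groups in P2 cells.

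The types I and III genes, which encode the main fibrils of connective tissue, were low in all E14.5 groups next to E18.5. *Col1a1* was at 33.1, 71.8, and 38.8 CPM in E14.5 CD54+CD31- cells, 34.0, 31.2, and 19.2 in CD31+ cells, and 24.4, 16.3, and 24.6 in P2 cells. *Col1a2* was at 18.9, 43.9, and 26.5 CPM in E14.5 CD54+CD31- cells, 13.5, 14.5, and 10.6 in CD31+ cells, and 13.9, 9.20, and 14.2 in P2 cells. *Col3a1* was at 39.2, 78.9, and 48.1 CPM in E14.5 CD54+CD31- cells, 31.1, 34.5, and 22.8 in CD31+ cells, and 28.7, 15.0, and 24.5 in P2 cells. In each of the 3 genes replicate 2 was the highest of the E14.5 CD54+CD31- libraries and the lowest of the P2 libraries. The stellate marker *Pdgfra* was at 4.64, 10.1, and 6.12 CPM in E14.5 CD54+CD31- cells, also highest in replicate 2. The sum of all 11 stellate markers, in which genes of high level weigh most, was 1131, 970.0, and 1079 CPM, lowest in replicate 2. The other stellate markers are not given by library here, and the part of such cells was not tested.

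All 3 genes were lower in P2 than in E14.5 CD54+CD31- cells. The log2 fold change was -1.16 ± 0.31, adjusted p = 0.00657 for *Col1a1*, -1.27 ± 0.29, adjusted p = 0.00241 for *Col1a2*, and -1.30 ± 0.29, adjusted p = 0.00242 for *Col3a1*. Without CD54+CD31- replicate 2 these became -0.76 ± 0.25, adjusted p = 0.0256 for *Col1a1*, -0.90 ± 0.23, adjusted p = 0.00672 for *Col1a2*, and -0.97 ± 0.26, adjusted p = 0.00876 for *Col3a1*. None of the 3 was called between P2 and CD31+ cells, but with the authors' factors *Col1a1* (-0.76, adjusted p = 0.0374) and *Col3a1* (-0.77, adjusted p = 0.0257) were lower in P2 cells. *Col1a1* was lower in CD31+ than in E14.5 CD54+CD31- cells at -0.78 ± 0.30, adjusted p = 0.0451. Libraries of the 2 groups overlapped. That call was lost with the replicate number as a block (adjusted p = 0.0599) and with the authors' factors (0.0688). It was also lost with DESeq2 size factors (0.0520) and with a filter of at least 10 counts in every library (0.0553). The same held without CD31+ replicate 2 (0.0535) or 3 (0.107), and without CD54+CD31- replicate 2 (-0.45, adjusted p = 0.161). *Col3a1* was at -0.92 ± 0.29, adjusted p = 0.0177 with all libraries and at -0.66 ± 0.26, adjusted p = 0.0548 without that library.

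Type V collagen regulates the width of fibrils, and its 2 main chains went opposite ways between groups. *Col5a1* was the only member higher in P2 cells, at 60.7, 62.6, and 58.1 CPM, against 39.0, 45.9, and 39.0 in E14.5 CD54+CD31- cells and 29.9, 30.9, and 28.4 in CD31+ cells. The 3 groups did not overlap. It was higher than in E14.5 CD54+CD31- cells (0.53 ± 0.09, adjusted p = 0.000346) and than in CD31+ cells (1.01 ± 0.09, adjusted p = 2.87e-06). *Col5a2* was at 151, 154, and 126 CPM in CD31+ cells, 10.4, 18.7, and 12.3 in E14.5 CD54+CD31- cells, and 7.44, 9.87, and 5.91 in P2 cells. It was higher in CD31+ than in E14.5 CD54+CD31- cells (3.38 ± 0.24, adjusted p = 6.87e-07) while *Col5a1* was lower there (-0.48 ± 0.09, adjusted p = 0.00082). The ratio of *Col5a1* to *Col5a2* counts was accordingly 8.16, 6.34, and 9.82 in P2 cells, 3.77, 2.46, and 3.17 in E14.5 CD54+CD31- cells, 0.198, 0.201, and 0.225 in CD31+ cells, and 0.983, 1.10, and 1.10 at E18.5. No 2 groups overlapped in this ratio. Since introns may be counted, reads of *Col5a1* cannot be split here into spliced and unspliced RNA.

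Among the remaining fibrillar members, *Col27a1*, known from cartilage, was high in E14.5 CD54+CD31- cells. It was at 87.3, 53.5, and 66.9 CPM there, 21.6, 14.7, and 16.8 in CD31+ cells, and 1.88, 1.75, and 2.00 in P2 cells, without overlap. The log2 fold change was -5.22 ± 0.23, adjusted p = 1.51e-08 for P2 and -1.98 ± 0.19, adjusted p = 7.33e-06 for CD31+ against E14.5 CD54+CD31- cells. Of the defining cartilage markers, *Acan* and *Matn1* were near 0 in the E14.5 CD54+CD31- libraries and were at no more than 0.0494 CPM, and *Comp* was at 2.57, 2.83, and 3.04 CPM. Over the cartilage list, 4 of 6 tested markers were lower in P2 than in E14.5 CD54+CD31- cells (66.7%, against 36.1% of all genes). In CD31+ cells 4 of 6 were lower as well, against 34.0% of all genes, and the part of the list was not tested. *Col11a1* was at 4.98, 3.74, and 4.74 CPM in CD31+ cells and was lower in P2 cells (1.86, 1.75, and 1.39 CPM) than in E14.5 CD54+CD31- cells (4.02, 6.48, and 5.13 CPM), at -1.66 ± 0.24, adjusted p = 9.92e-05. *Col5a3* was at 1.58, 0.472, and 1.58 CPM in E14.5 CD54+CD31- cells, 0.916, 0.784, and 0.713 in CD31+ cells, and 0.367, 0.645, and 0.501 in P2 cells. It was called lower in P2 than in E14.5 CD54+CD31- cells at -1.28 ± 0.47, adjusted p = 0.0323, with overlapping libraries, and lost the call without replicate 1 or 3 of either group (adjusted p between 0.0784 and 0.116). *Col2a1*, *Col11a2*, and *Col24a1* were not called in any E14.5 comparison.

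**Figure D5:**
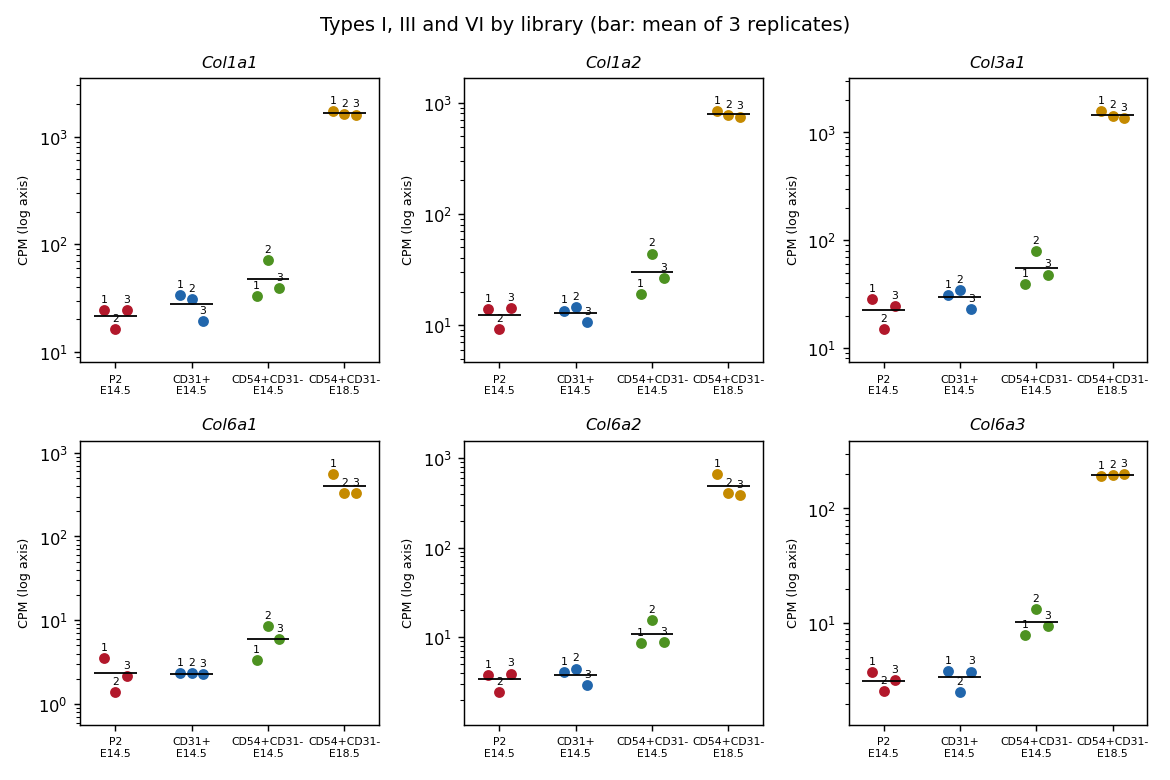
CPM of *Col1a1*, *Col1a2*, *Col3a1*, and the 3 classical type VI genes in each library on log axes, with replicates numbered and group means as bars. Replicate 2 of the E14.5 CD54+CD31- cells was the highest of its group for all 6 genes, and the E18.5 libraries were above all others.

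Type VI collagen forms beaded filaments next to cells, and its genes were highest among E14.5 groups in CD54+CD31- cells. *Col6a1* was at 3.31, 8.44, and 5.95 CPM in these cells, 2.32, 2.32, and 2.30 in CD31+ cells, and 3.51, 1.39, and 2.14 in P2 cells. *Col6a2* was at 8.52, 15.5, and 8.74 CPM in E14.5 CD54+CD31- cells, 4.02, 4.44, and 2.90 in CD31+ cells, and 3.77, 2.44, and 3.91 in P2 cells. *Col6a3* was at 7.87, 13.4, and 9.45 CPM in E14.5 CD54+CD31- cells, 3.81, 2.53, and 3.80 in CD31+ cells, and 3.77, 2.56, and 3.20 in P2 cells. Replicate 2 was again the highest CD54+CD31- library. All 4 tested members of the subclass, with *Col6a6*, were lower in CD31+ cells and in P2 cells than in E14.5 CD54+CD31- cells. Over all genes the shares were 34.0% and 36.1%. For *Col6a3* the log2 fold change was -1.60 ± 0.25, adjusted p = 0.000267 in CD31+ cells and -1.71 ± 0.26, adjusted p = 0.000151 in P2 cells. Libraries overlapped for *Col6a1* in P2 cells. *Col6a6* was at 7.92, 9.63, and 12.1 CPM in E14.5 CD54+CD31- cells, 7.24, 6.24, and 7.21 in CD31+ cells, and 4.66, 4.68, and 4.95 in P2 cells. For this gene the CD31+ call was lost without CD54+CD31- replicate 3 (-0.36, adjusted p = 0.0881) and with the authors' factors (-0.41, adjusted p = 0.0506). The first 3 genes were not called between P2 and CD31+ cells. Stellate markers were lower in 8 of 10 cases in both P2 and CD31+ cells than in E14.5 CD54+CD31- cells. This was 80.0% in each, against 36.1% and 34.0% of all genes. The stellate sums were 20.9 to 25.3 and 36.1 to 49.6 CPM, against 970.0 to 1131, and the part of these markers was not tested.

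FACIT collagens sit on the surface of fibrils, and 7 of 9 were tested at E14.5. *Col14a1* was at 15.8, 24.0, and 23.0 CPM in E14.5 CD54+CD31- cells, 13.1, 12.8, and 15.5 in CD31+ cells, and 5.76, 6.04, and 5.80 in P2 cells. It was lower in P2 than in E14.5 CD54+CD31- cells at -1.85 ± 0.16, adjusted p = 2.88e-06. *Col16a1* was at 1.95, 2.90, and 1.80 CPM in E14.5 CD54+CD31- cells, 4.71, 2.23, and 2.52 in CD31+ cells, and 0.482, 0.479, and 0.828 in P2 cells, lower in P2 than in CD31+ cells at -2.40 ± 0.39, adjusted p = 0.00024. *Col9a2* was at 0.934, 1.51, and 0.938 CPM in E14.5 CD54+CD31- cells, 2.35, 2.73, and 1.41 in CD31+ cells, and 1.03, 0.645, and 0.809 in P2 cells. It was higher in CD31+ than in E14.5 CD54+CD31- cells at 0.93 ± 0.35, adjusted p = 0.0365, with overlapping libraries. *Col12a1* was at 2.41, 2.14, and 1.70 CPM in E14.5 CD54+CD31- cells, 3.11, 2.83, and 1.27 in CD31+ cells, and 1.33, 1.10, and 1.60 in P2 cells. It was lower in P2 than in CD31+ cells at -0.84 ± 0.35, adjusted p = 0.0490, also with overlap, and both calls were lost when single libraries were left out. The 16 members below 10 CPM on average in every group and outside the pairs and largest changes, *Col10a1* among them, were at most 2.39 CPM in each E14.5 library, a value of *Col9a3*.

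At E18.5 almost all members were higher than at E14.5 in cells of the same gate. Of 42 members tested, 36 were higher and 1 lower, where 35.9% of 15863 genes were higher, 33.5% lower, and 69.4% called in either direction. The median log2 fold change was 3.62, against 0.03 over all genes. The rises took in 9 of 11 fibrillar, 7 of 8 basement membrane, and 20 of 23 other members. With the authors' factors the median of all genes shifted by 0.23 and the counts were 37 higher and 0 lower. Of all 15863 genes, 6591 were then higher and 4232 lower. Without E18.5 replicate 1 the counts were 36 and 1, where 5915 of 16074 genes were higher and 5774 lower. Lung epithelium markers were higher in 12 of 12 cases and lung mesenchyme markers in 7 of 7. Mesothelial markers were higher in 8 of 8 cases and endothelial markers in 10 of 10. Of 9 hepatoblast markers, 4 were lower (44.4%, against 33.5% of all genes), 1 was higher, and 4 were not called. Erythroid markers were lower in 8 of 10 cases. Of 10 stellate markers tested, 9 were higher and 1 lower, while the summed level of the list was 255 to 447 CPM at E18.5 and 970.0 to 1131 at E14.5. The part of these cell types in the rises was not tested.

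*Col4a4* and *Col4a3*, both scarce at E14.5, had the largest rises of all members. *Col4a4* was at 657, 280.1, and 288 CPM at E18.5 and 0.594, 0.567, and 0.321 at E14.5 (9.89 ± 0.58, adjusted p = 2.73e-05). *Col4a3* was at 543, 209, and 211 CPM at E18.5 and 0.934, 1.01, and 0.716 at E14.5 (8.70 ± 0.58, adjusted p = 3.93e-05). Both were high in the same 3 libraries, and their starts lie on either side of the 71 bases printed above. *Col4a5* was at 258, 138, and 138 CPM at E18.5 (5.35 ± 0.35, adjusted p = 3.93e-05). *Col4a6* was at 54.7, 36.4, and 34.5 CPM (6.27 ± 0.42, adjusted p = 4.03e-05). *Col4a1* was at 1759, 816, and 847 CPM (3.99 ± 0.37, adjusted p = 0.000119) and *Col4a2* at 1041, 477, and 492 CPM (5.04 ± 0.38, adjusted p = 6.16e-05). In all 6 genes replicate 1 was the highest library.

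The same library had the highest lung epithelium sum and the lowest hepatoblast sum. *Sftpc*, a surfactant gene of alveolar type 2 cells, was at 12377, 5095, and 5404 CPM, and *Ager*, a marker of alveolar type 1 cells, at 1917, 852, and 793 CPM. Without replicate 1 the type IV rises remained, at 8.07 ± 0.13, adjusted p = 3.17e-09 for *Col4a3* and 9.36 ± 0.16, adjusted p = 3.17e-09 for *Col4a4*. *Col4a1* without that library was at 3.51 ± 0.10, adjusted p = 2.53e-08. The 2 genes of each pair had E18.5 count ratios of 0.826, 0.747, and 0.732 for *Col4a3* to *Col4a4* and 4.72, 3.80, and 3.99 for *Col4a5* to *Col4a6*.

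Types I, III, and VI rose as well. *Col1a1* was at 1724, 1620.3, and 1600.2 CPM (5.30 ± 0.35, adjusted p = 3.93e-05), *Col1a2* at 839, 768, and 748 (4.91 ± 0.34, adjusted p = 4.51e-05), and *Col3a1* at 1578, 1431, and 1358 (4.91 ± 0.31, adjusted p = 3.46e-05). *Col6a1* was at 559.8, 329, and 327 CPM (6.30 ± 0.45, adjusted p = 5.2e-05) and *Col6a2* at 668, 408, and 387 CPM, both highest in replicate 1, while *Col6a3* was level across the libraries at 191, 197, and 200.2 CPM. *Col12a1* was at 107, 113, and 115 CPM (5.93 ± 0.17, adjusted p = 1.21e-05) and *Col14a1* at 311, 379, and 405 CPM (4.31 ± 0.20, adjusted p = 1.69e-05). *Col15a1* was at 59.7, 48.3, and 45.8 CPM (7.04 ± 0.29, adjusted p = 1.51e-05) and *Col23a1* at 78.4, 52.7, and 49.1 CPM (6.13 ± 0.33, adjusted p = 2.27e-05). *Col5a1* reached 252, 276, and 280.3 CPM (2.89 ± 0.11, adjusted p = 1.38e-05). *Col5a2* reached 256, 252, and 255 CPM (4.39 ± 0.24, adjusted p = 2.28e-05).

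Members of lower level rose too. *Col11a1* was at 49.3, 67.6, and 69.1 CPM at E18.5 (3.76 ± 0.21, adjusted p = 2.51e-05) and *Col5a3* at 11.2, 11, and 12.3 CPM (3.41 ± 0.42, adjusted p = 0.000406). *Col16a1* was at 51.2, 47.0, and 49.4 CPM (4.66 ± 0.20, adjusted p = 1.56e-05), *Col9a2* at 10.9, 13.4, and 13.1 CPM (3.65 ± 0.23, adjusted p = 3.46e-05), and *Col6a6* at 65.6, 69.5, and 71.8 CPM (2.99 ± 0.15, adjusted p = 2.11e-05). Of the transmembrane members, *Col13a1* was at 8.99, 6.87, and 6.04 CPM (2.89 ± 0.29, adjusted p = 0.000182), *Col17a1* at 3.59, 2.47, and 3.13 CPM (3.42 ± 0.44, adjusted p = 0.000496), and *Col25a1* at 10.4, 13.4, and 15.4 CPM (1.42 ± 0.18, adjusted p = 0.000441). *Col9a1* had 2 counts in the 3 E14.5 CD54+CD31- libraries together and was at 0.851, 0.763, and 0.692 CPM at E18.5.

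*Col18a1* was the only member called lower at E18.5. It was at 131, 382, and 481 CPM at E18.5 and 957, 873, and 861 at E14.5 (-1.26 ± 0.43, adjusted p = 0.0358), without overlap. Its lowest library was replicate 1, and *Alb*, a hepatoblast marker, was at 2405, 26609, and 34537 CPM. Without replicate 1 the fall was -0.89 ± 0.14, adjusted p = 0.000371. The call was lost when any E14.5 library or E18.5 replicate 2 was left out (adjusted p between 0.0682 and 0.0963), with the authors' factors (0.0639), and with a filter of at least 10 counts in every library (0.0517). *Col27a1* was at 33.6, 52.9, and 55.1 CPM (-0.38 ± 0.25, adjusted p = 0.213). Like *Col27a1*, the genes *Col2a1*, *Col9a3*, *Col19a1*, and *Col26a1* were not called between E18.5 and E14.5.

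Genes that modify, export, cross-link, bind, and degrade collagen were counted as a second list of 70, of which 66 were used and 64 tested at E14.5. In P2 cells 48 of 64 were lower and 6 higher than in E14.5 CD54+CD31- cells, and 48 were lower and 1 higher than in CD31+ cells, against the same backgrounds as above. In CD31+ cells 29 were higher and 19 lower than in E14.5 CD54+CD31- cells, against 31.7% and 34.0% over all genes. *Serpinh1*, the collagen chaperone HSP47, was at 638, 663, and 501 CPM in CD31+ cells, 55.5, 78.9, and 70.5 in E14.5 CD54+CD31- cells, and 10.8, 25.4, and 10.6 in P2 cells. It was lower in P2 than in E14.5 CD54+CD31- cells (-2.15 ± 0.32, adjusted p = 0.000126) and higher in CD31+ cells (3.13 ± 0.32, adjusted p = 1.13e-05). *Pxdn*, the peroxidase that cross-links type IV collagen, was at 432, 478, and 467 CPM in CD31+ cells and 5.12, 9.25, and 8.44 in E14.5 CD54+CD31- cells (5.91 ± 0.52, adjusted p = 3.25e-06), the largest rise of the list in that comparison. *Sparc*, a collagen-binding matrix protein, was next at 5.50 ± 0.55, adjusted p = 8.7e-06.

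The enzymes differed in their pattern across groups. The prolyl hydroxylase gene *P4ha1* was at 95.0, 98.9, and 103 CPM in CD31+ cells, 29.3, 29.5, and 34.3 in E14.5 CD54+CD31- cells, and 28.5, 30.3, and 31.3 in P2 cells, and P2 and CD54+CD31- cells overlapped. *P4ha2* was lower in P2 than in E14.5 CD54+CD31- cells (-1.49 ± 0.21, adjusted p = 9.53e-05). The lysyl hydroxylase gene *Plod1* was highest in E14.5 CD54+CD31- cells at 178, 168, and 175 CPM, against 71.4, 77.5, and 69.9 in CD31+ cells and 5.26, 8.95, and 5.83 in P2 cells. *Plod2* was highest in CD31+ cells at 10.5, 9.43, and 13.2 CPM (0.96 ± 0.18, adjusted p = 0.000732 against E14.5 CD54+CD31- cells). *Loxl2*, a cross-linking oxidase, was at 1.24, 3.62, and 1.64 CPM in P2 cells and 53.3, 57.4, and 56.7 in E14.5 CD54+CD31- cells (-4.70 ± 0.31, adjusted p = 3.33e-07), while *Lox* was at most 3.15 CPM in each E14.5 library. *Adamts3*, which cleaves procollagen propeptides, was the largest of the few rises in P2 cells, at 51.9, 50.5, and 45.3 CPM against 9.37, 7.59, and 8.83 in E14.5 CD54+CD31- cells (2.5 ± 0.11, adjusted p = 1.74e-08). *Pcolce2*, an enhancer of procollagen cleavage, was at 42.5, 38.8, and 39.5 CPM in E14.5 CD54+CD31- cells and at most 1.18 in the 6 other E14.5 libraries.

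Among the collagen receptors, *Itga1* was at 108, 111, and 106 CPM in CD31+ cells, 60.3, 59.0, and 59.7 in E14.5 CD54+CD31- cells, and 3.70, 6.99, and 2.25 in P2 cells. It was lower in P2 cells than in either (-3.81 ± 0.32, adjusted p = 1.81e-06 against E14.5 CD54+CD31- cells). *Itga10* was the second largest rise in P2 cells, at 1.19, 0.833, and 1.14 CPM against 0.283, 0.346, and 0.197 (1.92 ± 0.36, adjusted p = 0.000669). *Ddr1* and *Ddr2*, receptor tyrosine kinases for collagen, were lower in P2 than in E14.5 CD54+CD31- cells, at -3.59 ± 0.30, adjusted p = 1.61e-06 and -1.97 ± 0.32, adjusted p = 0.000276. Partners of type IV collagen in the basement membrane were lower in P2 cells in 6 of 6 cases against both groups. Over all genes the shares were 36.1% against E14.5 CD54+CD31- cells and 39.4% against CD31+ cells. *Hspg2*, which encodes perlecan, was at 2342, 2219, and 2237 CPM in CD31+ cells, 282, 225, and 245 in E14.5 CD54+CD31- cells, and 21.0, 101, and 30.7 in P2 cells, again highest in P2 replicate 2. *Fn1*, fibronectin, was at 5750.3, 4813, and 5466 CPM in E14.5 CD54+CD31- cells and 57.7, 78.0, and 60.3 in P2 cells (-6.37 ± 0.17, adjusted p = 4.39e-10), the largest fall of the list in that comparison.

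At E18.5, 44 of 65 machinery genes were higher and 11 lower than at E14.5, against backgrounds of 35.9% and 33.5% over all genes. *Mrc2*, an endocytic collagen receptor, was at 197, 113, and 117 CPM against 1.75, 2.23, and 1.78 (6.41 ± 0.31, adjusted p = 1.9e-05), and *Fmod*, a fibril-binding proteoglycan, at 98.3, 85.6, and 93.3 against 1.53, 2.61, and 0.790 (6.02 ± 0.42, adjusted p = 4.64e-05). *Lox* rose to 120.1, 92.4, and 80.3 CPM (5.69 ± 0.37, adjusted p = 3.65e-05). The largest falls were those of *Plod1*, to 18.5, 26.7, and 25.6 CPM (-2.70 ± 0.15, adjusted p = 2.42e-05), and *Pcolce2*, to 2.55, 9.14, and 12 CPM (-2.18 ± 0.50, adjusted p = 0.00708). *Plod2* went the other way, from 4.90, 5.85, and 6.19 to 46.3, 52.3, and 50.9 CPM (3.33 ± 0.11, adjusted p = 1.32e-05).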

How the data were processed

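RNA from sorted C57BL/6 embryonic liver cells was sequenced in 12 libraries, 3 in each of 4 groups. The authors removed ribosomal RNA, prepared stranded single-read libraries, trimmed reads with cutadapt 1.11, aligned them to GRCm38 (mm10) with STAR 2.5.0a, and counted them with featureCounts 1.4.6-p3, per the paper and the labels. The deposited files hold raw counts per gene, which were tested. They also hold a score, which the authors made from the count with 1 DESeq2 factor per library and rounded to whole numbers. It served to recover the authors' factors for an alternative. The strand setting and the treatment of multiply aligned reads are not given in the sources used here.

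Groups were taken from the labels. Counts were tested with edgeR 4.0.16 in R 4.3.3 (filterByExpr, TMM, quasi-likelihood, Benjamini-Hochberg adjustment over all genes tested), with the 9 E14.5 libraries in one fit and the 6 CD54+CD31- libraries in another. Alternatives were DESeq2 1.42.0, its size factors, the authors' factors, other filters and library sets, a replicate block, and leaving out each library. The collagen genes, their classes, the gene lists, and the tests were chosen with earlier results of these data known. Values in every library are given for members of at least 10 CPM on average in a group, for the type IV, I, V, and VI chain pairs, and for the 5 largest called changes per direction and comparison. Of the machinery list, 10 preset genes and the 2 largest called changes per direction and comparison are named. *Col2a1*, *Col9a1*, *Col9a3*, *Col10a1*, *Col11a2*, *Col19a1*, *Col24a1*, and *Col26a1*, outside this rule, are named after their values were seen.

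Same-numbered libraries of CD31+ and E14.5 CD54+CD31- cells deviated together from their group means (correlation across genes 0.334, 0.260, and 0.122), which was the basis for treating these as paired in the block. In each of the other comparisons at least 1 number stood under 0.1, though replicate 3 of P2 and CD31+ cells was at 0.336. In data simulated for P2 against E14.5 CD54+CD31- cells (15138 genes), 107 of 115 genes changed 4-fold and 33 of 85 changed 2-fold were called, with 4 unchanged genes called. In that simulation, changes of 2-fold were thus often missed. It changed 200 genes and gave every gene the same spread, while 70.0% of genes were called in the data for this comparison. Its recovery therefore need not hold for the data. The criterion for passing this simulation was restated by fold size after its first run. Counting precision is set by library totals of 40714017 to 64368883.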

Additional observations from a re-analysis of the deposited data

How the results depend on the processing

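Of 82 called fold changes of the members named by rule, none changed direction under any alternative run: 1162 refits kept the call and 36 lost it. The lost calls were those of *Col1a1*, *Col3a1*, *Col5a3*, *Col6a6*, *Col9a2*, *Col12a1*, and *Col18a1*, in part given above. Of 30 uncalled ones, 403 refits stayed uncalled in the same direction, 12 passed the threshold, and 32 changed sign. The cause of these changes was not tested. Collagen genes lower at E18.5 numbered 2 with all 12 libraries in one fit, where *Col27a1* was added (-0.55, adjusted p = 0.0417), and 0 with the authors' factors or with at least 10 counts in every library. They ranged from 0 to 1 when single libraries were left out. Collagen genes higher in P2 than in E14.5 CD54+CD31- cells ranged from 1 to 2, with *Col13a1* added without P2 replicate 1. Machinery genes higher in P2 than in E14.5 CD54+CD31- cells numbered 3 with the authors' factors, against 6.

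Uncalled fold changes that changed sign are given as log2 values. For P2 against E14.5 CD54+CD31- cells, the authors' factors gave -0.23 for *Col15a1*, -0.13 for *Col4a2*, and -0.25 for *Col4a3*. The 6 libraries compared alone gave -0.0201 for *Col15a1* and -0.0228 for *Col4a3*, and a filter of 10 counts in every library gave -0.0911 for *Col4a3*. For P2 against CD31+ cells, *Col6a1* was at -0.0193 with DESeq2, -0.0203 with its size factors, -0.13 with that filter, and -0.37 with the authors' factors. Without a low count filter *Col4a6* was at -0.0279 in CD31+ against E14.5 CD54+CD31- cells.

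Leaving out single libraries gave ranges across 0. For P2 against E14.5 CD54+CD31- cells these were -0.63 to 0.37 for *Col15a1*, -0.047 to 0.69 for *Col23a1*, -0.75 to 0.43 for *Col4a2*, and -0.13 to 0.0898 for *Col4a3*. For P2 against CD31+ cells they were -0.16 to 0.12 for *Col1a2*, -0.41 to 0.16 for *Col4a4*, -0.32 to 0.28 for *Col6a1*, -0.29 to 0.0177 for *Col6a2*, and -0.21 to 0.0475 for *Col6a3*. For CD31+ against E14.5 CD54+CD31- cells they were -0.0297 to 0.43 for *Col12a1* and -0.34 to 0.30 for *Col4a6*.

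With the replicate block, collagen calls were 1 higher and 17 lower for P2 against E14.5 CD54+CD31- cells. Of all 15461 genes, 5318 were higher and 5592 lower. For P2 against CD31+ cells the collagen calls were 1 and 18, and those of all genes 5382 and 6078. At E18.5, where the samples share only a number, they were 35 and 1, and 5330 and 4999 of 15863 genes. For P2 against E14.5 CD54+CD31- cells, the block gave -0.0252 for *Col15a1*, -0.0797 for *Col4a2*, and -1.38 for *Col4a1*. The last was then called (adjusted p = 0.0297), and *Col5a3* lost its call. *Col12a1* and *Col19a1* lost their calls for P2 against CD31+ cells, and *Col11a2* lost its call at E18.5. In the paired comparison of CD31+ with E14.5 CD54+CD31- cells the collagen calls were 9 and 10, and *Col1a1* lost its call. Of all 15461 genes, 4952 were higher and 5374 lower there. No other member's call changed with the block.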
